A study of Homo sapiens with 24 samples.

Results

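The MAP kinase dual-specificity phosphatases are 10 genes, DUSP1, DUSP2, DUSP4, DUSP5, DUSP6, DUSP7, DUSP8, DUSP10, DUSP14 and DUSP16, taken from the 58825 genes of the count table by their symbols. Their levels were read in 24 libraries of polyadenylated RNA from the established cell line SK-HEP-1, derived from a human liver tumour and given as endothelial in the labels. All lines carried CRISPR interference (CRISPRi), in which an inactive Cas9 with a repressor is guided to a promoter. The guides were sgRNA 2, 4, 5 or 6 against the long noncoding RNA PURPL (lines sg2, sg4, sg5 and sg6) or 1 of 2 non-targeting guides (lines NTC1 and NTC2). For 6 h each of the 6 lines was kept in 10 µM Nutlin-3a or in DMSO, the vehicle. Each line and treatment has 2 libraries, which the labels number 1 and 3 and call biological replicates. They are called harvests 1 and 3 here, and the numbers were not shown to pair libraries. Nutlin-3a keeps MDM2 from binding p53 and so activates p53. The labels do not say whether a line is a clone or a pool, and each guide is represented by 1 line.

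MAP kinases (ERK, JNK and p38) are switched on by phosphorylation of a threonine and a tyrosine in their activation loop, and dual-specificity phosphatases remove both phosphates. Many of these phosphatases are themselves induced by MAP kinase signalling, so their transcripts are widely read as a record of feedback in the pathway. DUSP1, DUSP2, DUSP4 and DUSP5 encode nuclear enzymes and have each been described as p53 targets in human cells. DUSP6 and DUSP7 encode cytoplasmic enzymes that prefer ERK, DUSP8, DUSP10 and DUSP16 encode enzymes that prefer JNK or p38, and DUSP14 encodes a small enzyme without the kinase-binding domain of the others.

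The depth of a library, as its sum of estimated counts, was 66.4 M to 92.1 M. The labelled cell type was not borne out by its markers: the 10 endothelial markers summed to between 0.387 and 0.975 CPM (counts scaled to 1 M per library after TMM normalisation) in 23 libraries, with PECAM1 at no more than 0.028 CPM, CDH5 at no more than 0.059 CPM and ERG at 0. The 10 hepatocyte markers summed to 1.76 to 3.78 CPM, with 2 of them at 1 CPM or more on average and ALB at no more than 0.014 CPM. Of 6 leukocyte markers 1 was at 1 CPM or more, with sums of 16.2 to 34.2 CPM and PTPRC at no more than 0.131 CPM. Of 6 epithelial markers 3 were at 1 CPM or more, with sums of 1371 to 2649 CPM, and of 8 fibroblast and mural markers 4, with sums of 3737 to 4825 CPM, of which VIM gave 3564 to 4608 CPM. The library of sg2 with Nutlin-3a from harvest 1 stood apart, with a slope of log2 level on transcript GC content of 1.13 per 10 percentage points, against -0.142 to 0.235 in the other 23 libraries. It was left out of the main fits, so that sg2 with Nutlin-3a is 1 library, and values with all 24 libraries are given where they matter. The share of counts from mitochondrial transcripts was 1.11% to 1.33% in PURPL guide lines with Nutlin-3a and 0.855% to 1.08% with DMSO, and 1.1% to 1.47% in NTC lines with Nutlin-3a and 0.81% to 0.927% with DMSO. Of 8 nuclear-retained and mitochondrial RNAs 5 rose with Nutlin-3a in PURPL guide lines, where they summed to 6481 to 8092 CPM against 5214 to 6582 CPM with DMSO. Of all genes tested 16.3% rose in PURPL guide lines and 9.14% in NTC lines. In NTC lines 6 of these 8 RNAs rose, with sums of 6638 to 9160 CPM with Nutlin-3a and 4851 to 5354 CPM with DMSO. The part of these shifts in the results below was not tested. Fewer cells with a transcript and less of it per cell cannot be told apart in these bulk libraries.

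The promoters of 3 of the 4 members that rose with Nutlin-3a are shown first (that of DUSP5, which rose most, was not used here), beside that of DUSP8, which carries the same element as DUSP1 and was barely detected. The RefSeq promoter table (GRCh38.p14, 250 bases before to 50 after the start) matched 8 of the 10 members. The bases shown lie before the start of every transcript of the gene. They are printed 5′ to 3′ on the gene's strand. Capitals mark TGACG on either strand (CGTCA on the other), the core of the cyclic AMP response element bound by CREB and ATF factors, with its full palindrome TGACGTCA, and the TATA box TATAAA.
DUSP1 (chr5:172771196-172771445, minus strand): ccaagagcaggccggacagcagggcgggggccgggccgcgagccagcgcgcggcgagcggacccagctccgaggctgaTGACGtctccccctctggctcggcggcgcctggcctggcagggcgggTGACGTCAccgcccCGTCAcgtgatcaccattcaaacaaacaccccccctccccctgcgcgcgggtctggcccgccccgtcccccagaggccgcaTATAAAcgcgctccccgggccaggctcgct
DUSP10 (chr1:221742177-221742339, minus strand): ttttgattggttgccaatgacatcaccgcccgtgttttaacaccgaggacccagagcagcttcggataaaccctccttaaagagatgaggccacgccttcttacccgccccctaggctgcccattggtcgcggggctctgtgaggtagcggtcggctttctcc
DUSP14 (chr17:37489641-37489830, plus strand): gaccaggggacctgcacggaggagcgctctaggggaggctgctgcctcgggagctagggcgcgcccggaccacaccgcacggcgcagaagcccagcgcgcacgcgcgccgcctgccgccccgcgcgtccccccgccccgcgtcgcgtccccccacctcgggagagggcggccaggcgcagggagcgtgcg
DUSP8 (chr11:1572272-1572521, minus strand): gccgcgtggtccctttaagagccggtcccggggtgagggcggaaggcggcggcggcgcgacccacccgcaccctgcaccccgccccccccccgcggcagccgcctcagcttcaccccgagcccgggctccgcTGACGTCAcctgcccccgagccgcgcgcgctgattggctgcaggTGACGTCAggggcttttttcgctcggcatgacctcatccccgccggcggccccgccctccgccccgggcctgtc
DUSP10 and DUSP14 have none of these letters in the bases shown. The palindrome stood at -125 in DUSP1, counted from the start, and at 2 places in DUSP8, and 1.85% of all 35116 promoters in the table held it on either strand. TGACG, which the palindrome contains, was in the windows of 3 members (DUSP1, DUSP8 and an alternative start of DUSP10) and in 24.6% of all promoters. TATAAA was found at -30 in DUSP1 alone among the members and in 11.5% of all promoters. The AP-1 site TGANTCA (7.71% of all promoters) was in none of the windows of the 8 members matched. Nor was a pair of CATG with 6 bases of any kind between them (0.373%), a strict form of the p53 site. Other forms of the p53 site and the DUSP5 promoter were not searched, so whether these genes have p53 sites was not tested. The promoter of DUSP14 had the highest GC content of these windows, 81%, and that of DUSP10 the lowest, 55%, against a median of 58.7% over all promoters.

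Per kb of exons, DUSP14 and DUSP1 were the most abundant members and DUSP8 and DUSP2 were close to absent. In NTC lines with DMSO the levels were 17.4 ± 1.82 CPM per kb for DUSP14, 16.3 ± 1.24 for DUSP1, 9.81 ± 0.381 for DUSP6, 6.41 ± 0.385 for DUSP5 and 5.76 ± 0.46 for DUSP16 (SD, n = 4). They were 4.67 ± 0.784 CPM per kb for DUSP7, 1.63 ± 0.166 for DUSP10, 0.682 ± 0.051 for DUSP4 and 0.026 ± 0.0025 for DUSP8 in the same libraries. The SD ranges of DUSP14 and DUSP1 overlapped in this order, as did those of DUSP5 and DUSP16 and those of DUSP16 and DUSP7. With Nutlin-3a the NTC lines held 25 ± 1.28 CPM per kb of DUSP14, 21.4 ± 1.15 of DUSP1, 10.7 ± 1.05 of DUSP6 and 9.75 ± 0.206 of DUSP5, so that DUSP5 came level with DUSP6.

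**Figure D1:**
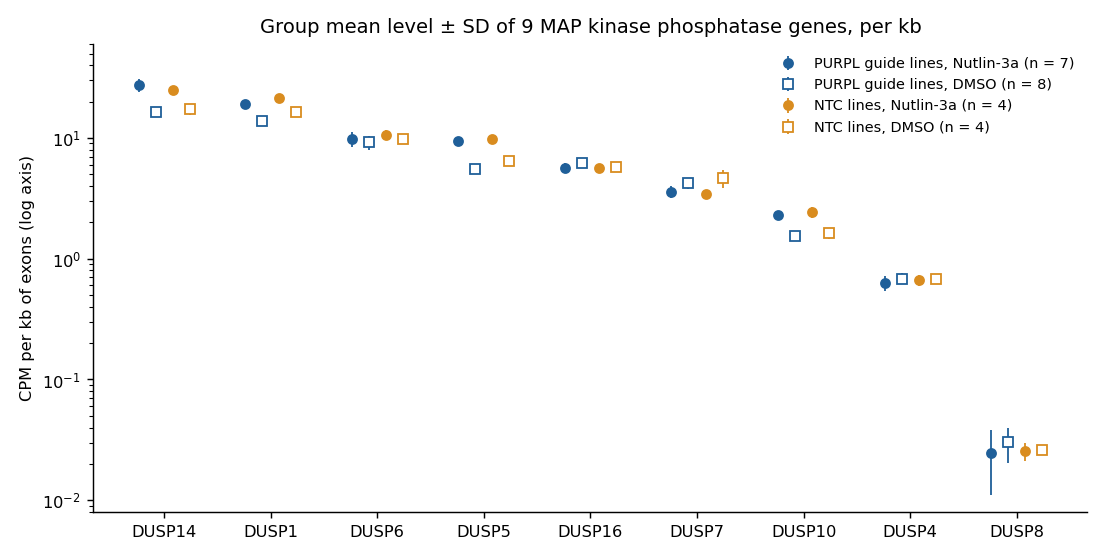
Mean level of 9 members in CPM per kb of exons (log axis) in PURPL guide lines and NTC lines with Nutlin-3a (filled circles) or DMSO (open squares), with SD bars and the divergent library left out. DUSP14 and DUSP1 lead in all 4 groups and DUSP8 lies at about 0.03 CPM per kb.

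Activation of p53 was checked on its targets. CDKN1A, the inhibitor of cyclin-dependent kinases, rose by 3.85 ± 0.075 on the log2 scale (SE) in PURPL guide lines and by 3.55 ± 0.103 in NTC lines. MDM2 rose by 3.21 ± 0.074 in PURPL guide lines and by 3.18 ± 0.102 in NTC lines. PURPL itself stood at 1.99 ± 0.533 CPM in PURPL guide lines with Nutlin-3a (SD, n = 7) and at 32.2 ± 3.89 CPM in NTC lines with Nutlin-3a (n = 4), and at 0.558 ± 0.203 CPM (n = 8) and 8.43 ± 1.25 CPM (n = 4) with DMSO. PURPL was thus lower in guide lines in both treatments.

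What Nutlin-3a did to the members was the same in outline in both classes of line: DUSP1, DUSP5, DUSP10 and DUSP14 rose, by 0.39 to 0.77 on the log2 scale, and the abundant ERK phosphatase DUSP6 did not pass the test. In NTC lines 4 of 9 members tested rose and 1, DUSP7, fell (edgeR's quasi-likelihood test, Benjamini-Hochberg adjusted p under 0.05 over 16237 genes). Among all genes tested 9.14% rose (1484) and 16.2% fell (2638). The split moved to 1874 higher and 1921 lower with RLE size factors, under which the members' calls numbered the same. The median log2 fold change was 0.12 over the 9 members and -0.06 over all genes. In PURPL guide lines 4 of 9 members rose and 0 fell, where 16.3% of all genes rose (2650) and 23.2% fell (3772), with a median of 0.13 over the members and -0.001 over all genes. With all 24 libraries the same count, 4 of 9, rose in both classes, against 4.18% of all genes in NTC lines and 17.7% in PURPL guide lines. Both contrasts share 1 model but no libraries. The p-values of these responses rest on how far 2 harvests of a line lay apart.

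**Figure D2:**
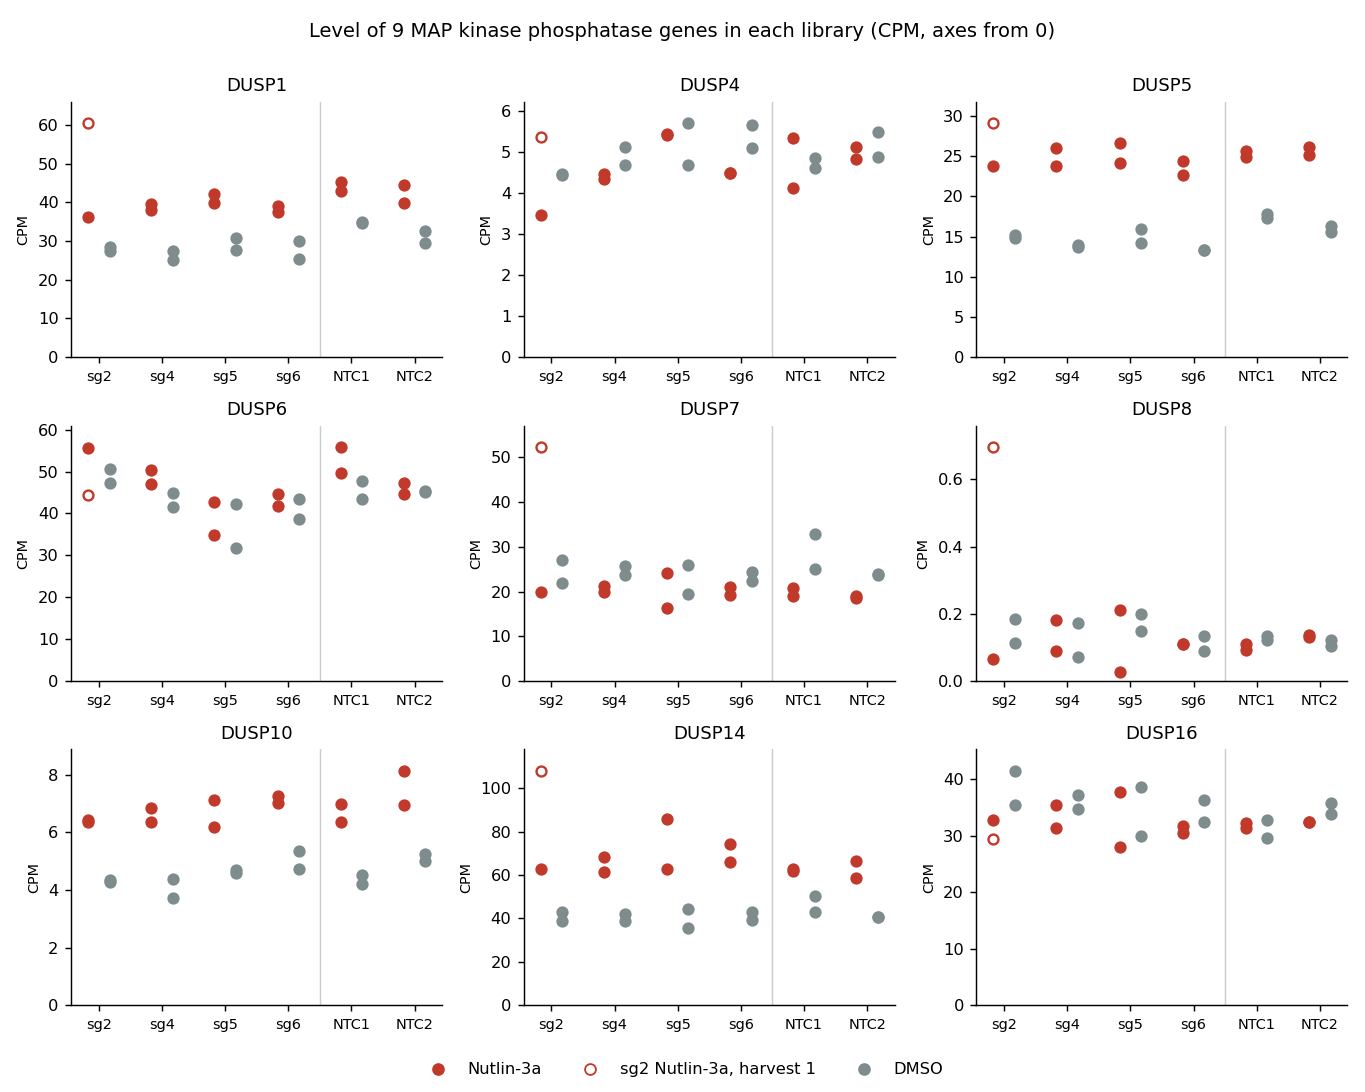
CPM of 9 members in each library, by line, with Nutlin-3a in red and DMSO in grey and the divergent library (sg2 with Nutlin-3a, harvest 1) as an open circle. For DUSP1, DUSP5, DUSP10 and DUSP14 every red point lies above every grey point of the same line, and for DUSP1, DUSP5, DUSP7, DUSP8 and DUSP14 the open circle is the highest point.

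Of the nuclear phosphatases, DUSP5, which binds and inactivates ERK in the nucleus (chr10:110497838-110511544, plus strand, hg38), changed most. PURPL guide lines held 22.6 to 26.7 CPM of DUSP5 with Nutlin-3a, with a median of 24.2, and 13.3 to 16.0 CPM with DMSO, with a median of 14.1. NTC lines held 25.7, 25.0, 26.2 and 25.2 CPM with Nutlin-3a, against 17.3, 17.8, 16.4 and 15.5 CPM with DMSO. The 2 treatments did not overlap in either class. DUSP5 rose by 0.77 ± 0.045 (SE) on the log2 scale in PURPL guide lines (adjusted p = 9.6e-10, edgeR) and by 0.61 ± 0.061 in NTC lines (adjusted p = 1.42e-06). Its adjusted p stayed between 8.12e-31 and 4.42e-04 over 20 alternatives in NTC lines.

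DUSP1, a nuclear phosphatase that acts on p38, JNK and ERK (chr5:172768090-172771195, minus strand), rose less than DUSP5, at a higher level. Its 7 PURPL guide libraries with Nutlin-3a ran from 36.3 to 42.2 CPM with a median of 39.1, and the 8 with DMSO from 25.0 to 30.8 CPM with a median of 27.5. In NTC lines DUSP1 had 45.1, 42.9, 44.5 and 39.9 CPM with Nutlin-3a and 34.6, 35.0, 32.7 and 29.5 CPM with DMSO. Treatments did not overlap within a class, but the NTC libraries with DMSO reached close to the lowest guide libraries with Nutlin-3a. The log2 fold change was 0.48 ± 0.049 in PURPL guide lines (adjusted p = 7.65e-07, edgeR) and 0.39 ± 0.066 in NTC lines (adjusted p = 3.21e-04). With all 24 libraries the adjusted p in NTC lines was 0.0403, the highest of 20 alternatives.

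DUSP4, on chromosome 8, encodes a nuclear phosphatase related to DUSP1 and was low. It had 3.47 to 5.42 CPM in PURPL guide lines with Nutlin-3a and 4.43 to 5.71 CPM with DMSO, and 4.12 to 5.33 CPM in NTC lines with Nutlin-3a and 4.6 to 5.47 CPM with DMSO, so the groups overlapped. Its log2 fold change was -0.18 ± 0.074 in PURPL guide lines (adjusted p = 0.0674, edgeR) and -0.03 ± 0.097 in NTC lines (adjusted p = 0.858). It was called lower in PURPL guide lines in 3 of 26 alternatives, with the GC trend removed (-0.19, adjusted p = 0.0379), with that and a replicate block (-0.18, adjusted p = 0.0372) and without sg5 with DMSO of harvest 1 (-0.21, adjusted p = 0.0358). DUSP2, a phosphatase best known from activated leukocytes, had 12 counts over 23 libraries, at most 3 in any of them, and was not tested. Such counts allow no statement on its response at this depth.

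The JNK and p38 phosphatase DUSP10 (chr1:221701424-221742176, minus strand) rose as a gene of low level. It ran from 6.19 to 7.27 CPM in PURPL guide lines with Nutlin-3a, with a median of 6.86, and from 3.74 to 5.36 CPM with DMSO, with a median of 4.49. NTC lines had 6.97, 6.35, 8.15 and 6.97 CPM of DUSP10 with Nutlin-3a, against 4.2, 4.51, 5.27 and 5.02 CPM with DMSO. Every library with Nutlin-3a was above every library with DMSO, the divergent one at 6.36 CPM included. The log2 fold change was 0.57 ± 0.066 in PURPL guide lines (adjusted p = 2.72e-06, edgeR) and 0.58 ± 0.089 in NTC lines (adjusted p = 1.13e-04).

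The other JNK and p38 phosphatases did not pass the test. DUSP16, which acts mainly on JNK, had 28.0 to 37.7 CPM in PURPL guide lines with Nutlin-3a and 29.9 to 41.5 CPM with DMSO, and 31.4 to 32.4 CPM in NTC lines with Nutlin-3a and 29.5 to 35.8 CPM with DMSO. Its log2 fold change was -0.14 ± 0.072 in PURPL guide lines (adjusted p = 0.144, edgeR) and -0.04 ± 0.096 in NTC lines (adjusted p = 0.82). DUSP16 was called lower in PURPL guide lines in 3 of 26 alternatives, among them without sg5 with Nutlin-3a of harvest 1 (-0.19, adjusted p = 0.0211). DUSP8, known mainly from brain and heart, had 2 to 15 counts in each of the 23 libraries. Its log2 fold change was -0.37 ± 0.34 in PURPL guide lines (adjusted p = 0.412, edgeR) and -0.04 ± 0.431 in NTC lines (adjusted p = 0.964). Without sg5 with Nutlin-3a of harvest 3 it was -0.86 in PURPL guide lines and called (adjusted p = 0.0403), so at this depth 1 library decides the call of DUSP8.

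DUSP14 (chr17:37489831-37513501, plus strand), the small phosphatase whose reported substrates include ERK, JNK and TAB1, was the most abundant member per kb and rose in both classes. PURPL guide lines held 61.4 to 85.8 CPM with Nutlin-3a, with a median of 66.0, and 35.7 to 44.4 CPM with DMSO, with a median of 40.8. Values in NTC lines were 62.1, 62.9, 58.6 and 66.4 CPM with Nutlin-3a and 43.1, 50.2, 40.5 and 40.7 CPM with DMSO. The treatments did not overlap, and the sg5 library with Nutlin-3a of harvest 3 was the highest of the 23 at 85.8 CPM. Its slope on GC content, 0.235, was also the highest of the 23. The highest NTC value with DMSO, 50.2 CPM, came from NTC1 harvest 3, whose slope was 0.213. Over 26 alternatives, removal of the GC trend among them, the log2 fold change of DUSP14 in PURPL guide lines ran from 0.69 to 0.86. DUSP14 rose by 0.74 ± 0.071 on the log2 scale in PURPL guide lines (adjusted p = 3.32e-07, edgeR) and by 0.52 ± 0.095 in NTC lines (adjusted p = 6.34e-04).

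Neither cytoplasmic ERK phosphatase was called higher. DUSP6, a common transcriptional readout of ERK activity (chr12:89347232-89353271, minus strand), had 34.9 to 55.7 CPM in PURPL guide lines with Nutlin-3a and 31.7 to 50.7 CPM with DMSO. NTC lines had 49.7, 55.9, 47.3 and 44.6 CPM of DUSP6 with Nutlin-3a and 43.4, 47.7, 45.2 and 45.5 CPM with DMSO, so the treatments overlapped in both classes. The log2 fold change was 0.13 ± 0.065 in PURPL guide lines (adjusted p = 0.135, edgeR) and 0.12 ± 0.086 in NTC lines (adjusted p = 0.363). DUSP6 was called higher in PURPL guide lines in 4 of 26 alternatives, among them without sg5 with DMSO of harvest 3 (0.18, adjusted p = 0.0204) and without sg5 with Nutlin-3a of harvest 1 (0.16, adjusted p = 0.0465). Line means of DUSP6 lay further apart than its treatments: they ran from 38.8 CPM in sg5 to 55.7 CPM in sg2 with Nutlin-3a, and from 37.0 CPM in sg5 to 49.0 CPM in sg2 with DMSO.

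DUSP7 (chr3:52048919-52056550, minus strand), the close relative of DUSP6, was the member that fell in NTC lines. It had 19.1, 20.8, 19.0 and 18.6 CPM there with Nutlin-3a, against 25.0, 32.9, 23.9 and 23.6 CPM with DMSO, with no overlap. The log2 fold change was -0.44 ± 0.121 (adjusted p = 0.0127, edgeR). The highest DMSO value, 32.9 CPM, came from NTC1 harvest 3, whose slope on GC content was 0.213, and without that library the log2 fold change was -0.33 (adjusted p = 0.0714). The call was also lost with all 24 libraries (-0.41, adjusted p = 0.346) and without NTC1 with Nutlin-3a of harvest 1 (-0.41, adjusted p = 0.0512), while with the GC trend of each library removed it was -0.27 (adjusted p = 0.046). In PURPL guide lines DUSP7 had 16.3 to 24.1 CPM with Nutlin-3a and 19.5 to 26.9 CPM with DMSO, which overlapped, and a log2 fold change of -0.23 ± 0.091 (adjusted p = 0.0516). There the call was made in 9 of 26 alternatives, among them the GC trend removed (-0.32, adjusted p = 0.00188), without sg2 with DMSO of harvest 1 (-0.27, adjusted p = 0.0343), without sg5 with DMSO of harvest 1 (-0.28, adjusted p = 0.0224) and without sg5 with Nutlin-3a of harvest 3 (-0.3, adjusted p = 0.00574).

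Libraries of the 2 treatments did not overlap for 5 members in NTC lines (DUSP1, DUSP5, DUSP7, DUSP10 and DUSP14), where this held for 24.8% of all genes tested. In PURPL guide lines it held for 4 members (the same without DUSP7), against 20.2% of all genes.

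**Figure D3:**
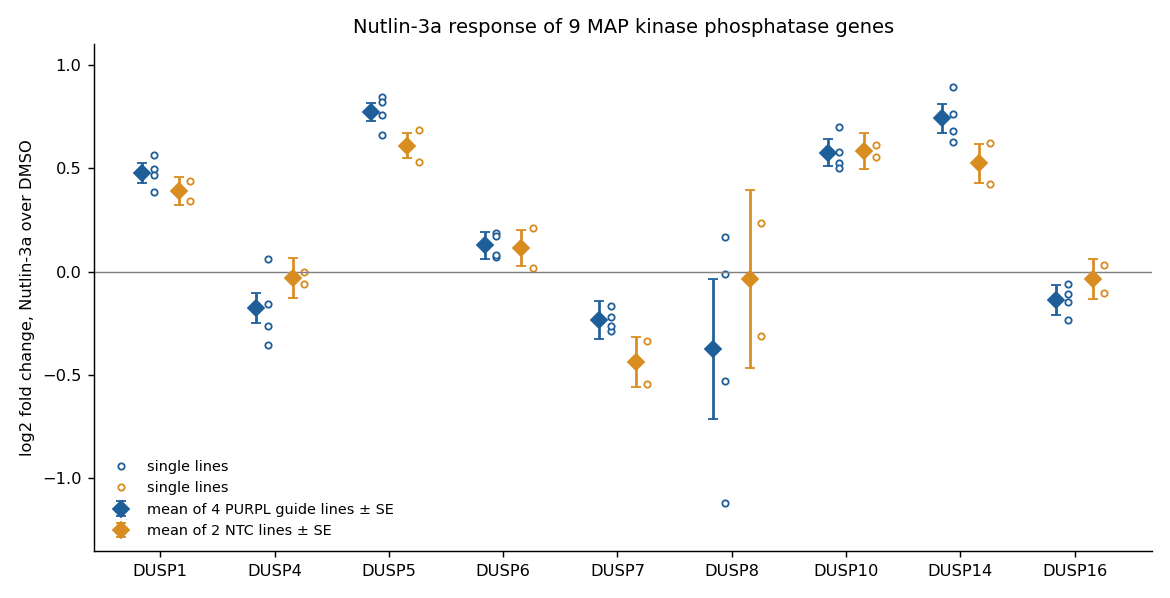
Log2 fold change of 9 members, Nutlin-3a over DMSO, as the mean of the PURPL guide lines (blue diamonds) and of the NTC lines (orange diamonds), with SE bars, and in each line (open circles). DUSP1, DUSP5, DUSP10 and DUSP14 lie above 0 in all 6 lines and DUSP7 lies below 0 in all 6.

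Taken line by line, DUSP1, DUSP5, DUSP10 and DUSP14 were each called higher in all 6 lines, in sg2 from 1 library with Nutlin-3a. The share of all genes called higher was 3.25% in sg2, 5.27% in sg4, 6.94% in sg5, 5.61% in sg6, 6.91% in NTC1 and 4.69% in NTC2. With no filter on low counts DUSP1 and DUSP10 were not called in sg2. For DUSP5 the log2 fold change was 0.66 in sg2, 0.85 in sg4, 0.76 in sg5, 0.82 in sg6, 0.53 in NTC1 and 0.69 in NTC2, each with an SE of 0.086 to 0.103. DUSP1 ranged from 0.34 in NTC1 to 0.56 in sg4, DUSP10 from 0.5 in sg6 to 0.7 in sg4, and DUSP14 from 0.42 in NTC1 to 0.89 in sg5. DUSP7 was negative in all 6 lines, from -0.54 in NTC1 to -0.17 in sg5, and was called in NTC1 only, where 10.1% of all genes were called lower. That call was made in 2 of 5 alternatives. Whether NTC1 differs from the other lines was not tested. With the divergent library included, DUSP7 in sg2 was 0.59 ± 0.307 and not called. With all 24 libraries, 14 of the 54 combinations of member and line were called in place of 25, and only DUSP5 was then called in each of the 6 lines. In that fit 4 members were called higher in sg2, beside 3302 of 16371 genes. Each other line had 2 members called higher, beside 263 to 283 genes.

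Antisense or overlapping transcripts stood at no more than 0.083 CPM in the 23 libraries (AC022217.3 at DUSP1, AC024909.1 at DUSP6, AC007619.1 at DUSP16), and KRTAP5-AS1 at DUSP8 had 0 counts. The libraries were made with a stranded kit, but no source used here says if counting was by strand, so reads of these pairs cannot be told apart.

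Next, the question was whether silencing PURPL shifted the members. None of the 9 members tested was called between PURPL guide lines and NTC lines in either treatment (edgeR, 4 line sums against 2). In DMSO 0.00601% of all 16648 genes were called, which is PURPL alone (-3.92, adjusted p = 0.0127). With Nutlin-3a 0.00596% of 16768 genes were called, again PURPL alone (-4.06, adjusted p = 4.88e-05, but 0.432 with all 24 libraries). DESeq2 also called 0 members, where it called 0.0661% of genes in DMSO and 0.113% with Nutlin-3a. At an unadjusted p under 0.05, 2 members were lower in guide lines in DMSO, DUSP1 and DUSP5, where 3.17% of all genes met that level in either direction, and 1 with Nutlin-3a, DUSP1, where 4.77% did.

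In the 23 libraries DUSP1 was the member with the most regular difference between the classes. Its line means with Nutlin-3a were 36.3 CPM in sg2, 38.8 in sg4, 41.1 in sg5 and 38.3 in sg6, against 44.0 in NTC1 and 42.2 in NTC2. With DMSO they were 27.8 in sg2, 26.2 in sg4, 29.2 in sg5 and 27.7 in sg6, against 34.8 in NTC1 and 31.1 in NTC2. In these means all 4 guide lines were below both NTC lines in both treatments. Line means of the classes did not overlap, in either direction, for 9.88% of all genes in DMSO and for 16.4% with Nutlin-3a. The share of genes without overlap in both treatments was not counted, and both treatments use the same lines. With Nutlin-3a, however, sg2 is 1 library here, and the sg2 library left out held 60.5 CPM, above both NTC lines. The log2 difference was -0.17 ± 0.051 with Nutlin-3a (adjusted p = 0.828, edgeR) and -0.24 ± 0.074 with DMSO (adjusted p = 0.825), so neither passed the correction. Over 16 alternatives the difference with Nutlin-3a ran from -0.21 to -0.05. With 15 possible splits of the lines an exact permutation test of line means cannot go below p = 0.0667, and it was not used to call members.

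DUSP5 line means with DMSO were 15.1 CPM in sg2, 13.9 in sg4, 15.1 in sg5 and 13.3 in sg6, against 17.6 in NTC1 and 16.0 in NTC2, a log2 difference of -0.22 ± 0.087 (adjusted p = 0.825, edgeR). With Nutlin-3a the guide lines had 23.8, 25.0, 25.4 and 23.5 CPM and the NTC lines 25.3 and 25.7 CPM, and the classes overlapped. Line means did not overlap in DMSO for 2 members, DUSP1 and DUSP5, and for 9.88% of all genes. With Nutlin-3a they did not overlap in the 23 libraries for DUSP1, DUSP7 and DUSP14, and for 16.4% of all genes. DUSP14 averaged 68.0 CPM over guide lines with Nutlin-3a against 62.5 CPM over NTC lines (log2 difference 0.11 ± 0.063, adjusted p = 0.828), and DUSP7 20.2 CPM against 19.4 CPM (0.05 ± 0.051, adjusted p = 0.845). Medians of the 9 members were -0.08 with Nutlin-3a and -0.09 with DMSO, against 0.001 and -0.01 over all genes.

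Leaving out the NTC2 line changed the DMSO comparison: 5 members were then called, DUSP1 (-0.32), DUSP5 (-0.29), DUSP7 (-0.3), DUSP14 (-0.2) and DUSP16 (0.22), beside 3117 genes called higher and 3240 lower in total. That fit has 1 NTC line, whose spread is assumed to be that of the guide lines.

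**Figure D4:**
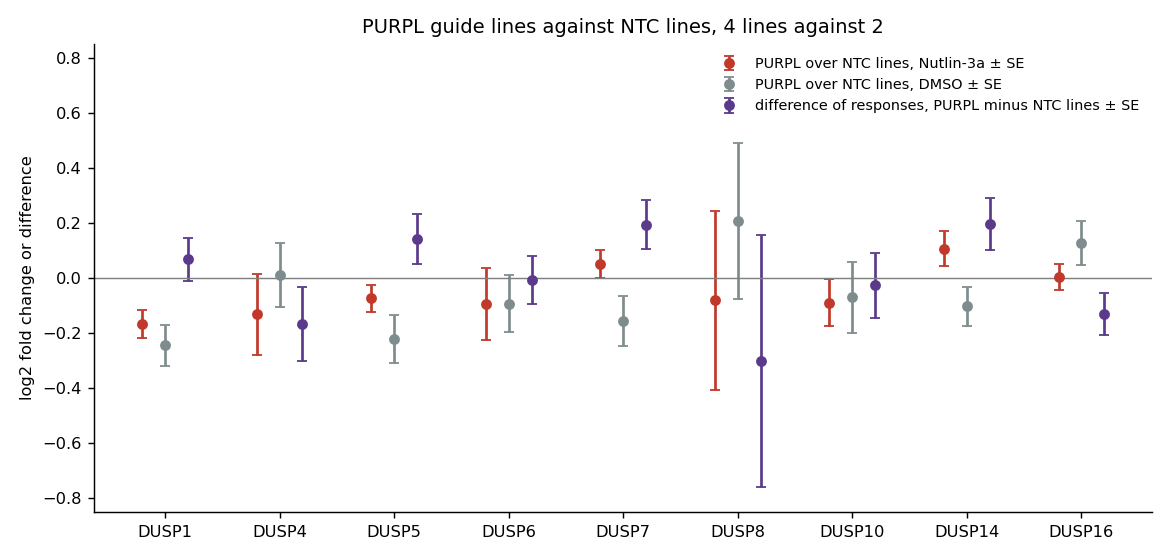
Log2 difference of 9 members between PURPL guide lines and NTC lines with Nutlin-3a (red) and with DMSO (grey), and the difference of their Nutlin-3a responses (purple), with SE bars, from sums per line. DUSP1 lies below 0 in both treatments, and no member passed the adjusted threshold.

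The responses themselves were compared over lines, to ask whether silencing PURPL altered how the members answered Nutlin-3a. Of 9 members tested 0 differed, and 0 of 17106 genes (0%) did in edgeR. DESeq2 called 0.0292% of genes and 0 members. At an unadjusted p under 0.05 there were 0 members, where 5.81% of all genes met that level. The response of DUSP14 was larger in guide lines by 0.2 ± 0.093 on the log2 scale (adjusted p = 0.613, edgeR), and that of DUSP5 by 0.14 ± 0.09 (adjusted p = 0.614). For DUSP7 the difference was 0.19 ± 0.089 (adjusted p = 0.613, edgeR), which is a smaller fall in guide lines. Over 16 alternatives the DUSP7 difference ran from -0.04 to 0.39, so its sign depended on the setting. That of DUSP14 ran from 0.08 to 0.31. DUSP10 differed by -0.03 ± 0.117 and DUSP1 by 0.07 ± 0.078. Without NTC2, which leaves 1 NTC line, the difference was 0.31 for DUSP7 and 0.31 for DUSP14. Leaving out harvest 3 leaves sg2 with no library with Nutlin-3a. DUSP14 was then called (0.24, adjusted p = 0.0127, edgeR), beside 1475 genes called higher and 650 lower of 15805 tested.

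Other genes of the MAP kinase pathways were set beside the members from lists chosen for their role. Each list held genes that rose and genes that fell. Their counts stand beside shares of all genes of 9.14% higher and 16.2% lower in NTC lines and 16.3% and 23.2% in PURPL guide lines. Several lie near these shares, as for JNK and p38 in NTC lines. Of 17 other MAP kinase phosphatases tested in NTC lines 6 rose and 4 fell: PPM1D (1.24), a p53-induced phosphatase of p38, DUSP11 (0.54), an RNA phosphatase by its main known activity, and PPM1A (0.53) rose, and PPP2CA (-0.26), the catalytic subunit of PP2A, fell. In PURPL guide lines 7 of these 17 rose and 3 fell. The relatives of DUSP6 and DUSP7 include DUSP9, which had 3 to 16 counts per library and did not pass the test. The median log2 fold change in NTC lines was 0.03 over these other phosphatases, against 0.12 over the 9 members and -0.06 over all genes. In PURPL guide lines it was 0.13 over the other phosphatases and 0.13 over the members.

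Upstream of ERK, 4 of 22 ligands and receptors rose and 3 fell in NTC lines, with 5 and 4 in PURPL guide lines. TGFA, a ligand of the EGF receptor, rose by 1.38 ± 0.069 in PURPL guide lines and by 1.4 ± 0.093 in NTC lines. In NTC lines PDGFA (0.67) and NRG1 (0.44), ligands of other receptor kinases, rose too, and the EGF receptor ligand AREG fell by 0.68. Within the RAS-RAF-MEK-ERK core 1 of 20 rose and 4 fell in NTC lines: the scaffold KSR1 (0.78) rose, and MAP2K1 (-0.44), which encodes MEK1, and RPS6KA3 (-0.37) were among those that fell. The counts in PURPL guide lines were 4 and 6. Of 23 genes of the JNK and p38 cascade, the pathways that DUSP10 opposes, 2 rose and 4 fell in NTC lines, against 3 and 10 in PURPL guide lines. MAP3K5 (-0.82), an upstream kinase, MAP3K4 (-0.44) and the p38 gene MAPK14 (-0.18) fell in NTC lines, and MAP2K4 (0.45) rose.

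Other feedback inhibitors of RAS-ERK were split, with 2 of 15 higher and 3 lower in NTC lines and 3 and 6 in PURPL guide lines. SPRY1 (0.92) and SPRY3 (0.61) rose in NTC lines, and LRIG1 (-0.38) and ERRFI1 (-0.23) fell. Genes listed as transcriptional outputs of ERK went both ways. In NTC lines 4 of 20 rose and 4 fell, and in PURPL guide lines 5 and 5. The 4 with the smallest p in NTC lines all fell: MYC (-0.92), ETV1 (-0.51), ETV5 (-0.46) and ELK1 (-0.27). The 4 that rose are not named here, and DUSP6 did not pass the test. ETV5 and DUSP6 are often read together as ERK targets, and their log2 fold changes in NTC lines were -0.46 ± 0.059 and 0.12 ± 0.086. The median was -0.12 over the core, -0.15 over JNK and p38, -0.05 over ligands and receptors, -0.07 over feedback inhibitors and -0.01 over outputs. With all 24 libraries fewer genes of the lists were called in NTC lines: 2 higher and 0 lower among the other phosphatases, 3 and 0 among ligands and receptors, 1 and 1 in the core, 0 and 2 for JNK and p38, 1 and 0 among feedback inhibitors and 0 and 2 among outputs. Between PURPL guide lines and NTC lines 0 genes of these 6 lists were called in either treatment or in the difference of responses (edgeR).

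**Figure D5:**
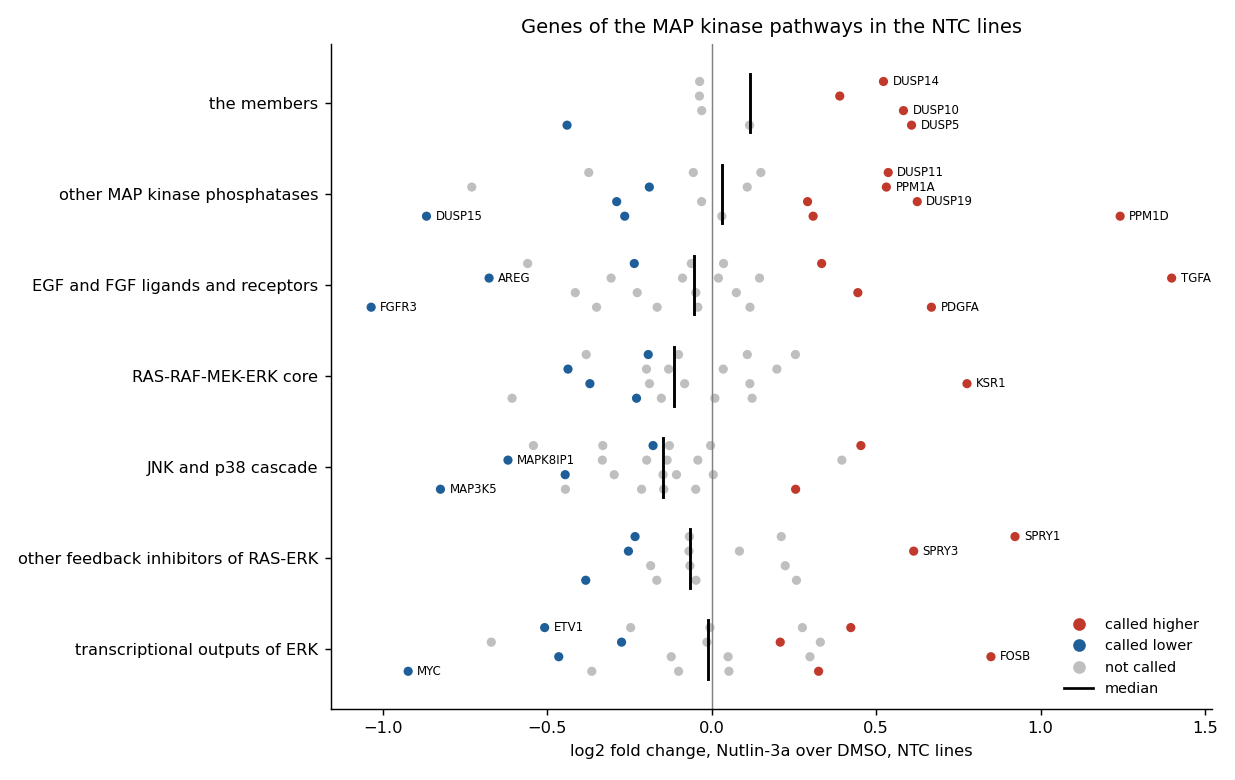
Log2 fold change with Nutlin-3a in NTC lines of each gene tested in the member list (top row) and 6 lists of MAP kinase pathway genes, coloured by call, with the median of each list as a black bar. The members' median is 0.12 and the other 6 medians run from -0.15 to 0.03, and genes called higher and lower occur in every row.

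Genes whose levels ran most like those of the 2 members that changed most in NTC lines were sought over the 12 group means of line and treatment, among 9509 genes at 5 CPM or more on average. DUSP5 was followed most closely by GDF15, a stress-induced cytokine (Pearson r = 0.988), ASB1 (0.985) and SAT1, an enzyme of polyamine breakdown (0.985). DUSP10 was followed by KCTD4 (0.976), the ligand gene BMP10 (0.974) and TGFA (0.973). These 12 points share their treatment and line, so the coefficients describe the pattern and carry no test. The rise of all 6 genes in NTC lines follows from how they were picked and is no separate result. It was largest in GDF15, by 2.68 ± 0.192 on the log2 scale, and smallest in ASB1, by 0.29 ± 0.068.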

How the data were processed

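Polyadenylated RNA was sequenced from stranded TruSeq libraries, per the labels' protocols. The authors deposited RSEM estimated counts per gene. cutadapt, STAR, RSEM, DESeq2 and the build hg38 are named in the submitters' processing notes. Versions, roles and the use of strand in counting are not given in the sources. Between 5.6% and 7.16% of the deposited estimated counts of a library were not whole. The 45 rows for second copies of pseudoautosomal genes (0.0222% of counts) were added to their X rows, and counts were rounded. Positions, exon lengths and transcript GC content were taken from GENCODE 29 (hg38), where all 10 members were found, 1 of them with the same ID version.

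Counts were normalised with TMM and tested with the robust quasi-likelihood F test of edgeR 4.0.16 (R 4.3.3), adjusted by Benjamini-Hochberg over all genes tested and called at 0.05. Genes needed the CPM of 10 counts in a library of median size in at least 2 libraries, and 15 counts in all. Responses to Nutlin-3a were contrasts in 1 model of the 12 group means over 23 libraries, with 11 residual degrees of freedom. PURPL guide lines were compared with NTC lines on counts summed per line, 4 against 2, and the difference of responses on 12 sums with a term for each line. Standard errors are the log2 fold change divided by the root of F. Levels are CPM; per kb values divide by the exon length. The alternatives were RLE scaling, other filters, DESeq2 1.42.0, a replicate block, fewer, all or summed libraries, removal of a lowess trend on GC content (known for 99.7% of genes tested), and libraries, lines or harvests left out. Tests were checked on simulated counts, drawn with the same dispersion for every gene. These had no differences between lines or harvests and no GC trend, so the check does not cover such effects.

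The members, lists and tests were chosen with earlier results of these data known. The named genes are the members, PURPL, CDKN1A and MDM2, up to 4 called genes of each list by p in NTC lines, and the 3 genes most like each of 2 members; DUSP9 and the antisense genes were added after their values were seen. A listed gene is not reported here. A DUSP5 and a DUSP4 promoter were not used here.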

Additional observations from a re-analysis of the deposited data

Results flagged for a closer look

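In 48 groups of 4 or 8 libraries, the highest or lowest library stood apart from the rest by Dixon's 95% criterion in 7, where chance flags about 1 in 20. The library of sg2 with Nutlin-3a from harvest 1 accounts for 4 of these among the PURPL guide lines with Nutlin-3a: it held 60.5 CPM of DUSP1, 52.3 CPM of DUSP7, 0.697 CPM of DUSP8 and 2971 CPM of CDKN1A, each above the other 7. It is the library with the steep slope on GC content. NTC1 with DMSO from harvest 3 had the highest DUSP7 of its group, 32.9 CPM. NTC1 with Nutlin-3a from harvest 3 had the lowest DUSP16 of its group, 31.4 CPM, where the other 3 lie between 32.3 and 32.4 CPM, and NTC2 with Nutlin-3a from harvest 1 had the highest MDM2, 4206 CPM.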

How the results depend on the processing

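Over 1077 recalculated values of single members, 1031 kept their direction, or lay on either side of 0 without a call, and their side of the threshold; 18 lost the call, 28 gained it and 0 reversed. DUSP1, DUSP5, DUSP10 and DUSP14 were called in all 20 alternatives of the NTC response and all 26 of the PURPL guide response. In PURPL guide lines 4 members rose and 0 fell. With the GC trend removed 4 rose and 2 fell, beside 3765 and 3762 of all 16237 genes tested. A replicate block added to that gave the same member counts, beside 4036 and 3957 genes. With sums per line 4 and 2 were called, beside 2677 and 3437 of 17106 genes. No filter gave 4 and 1, beside 3434 and 3249 of 29226 genes. A block of harvest number gave 4 and 1, beside 2787 and 3932 of 16237 genes. A filter at 1 CPM gave 5 and 0, beside 3365 and 2727 of 12521 genes. Leaving out 1 library gave 4 to 6 members called in PURPL guide lines, with 6 without sg5 with Nutlin-3a of harvest 1 or 3 or with DMSO of harvest 1. Across those fits 2173 to 3157 genes rose and 3411 to 3988 fell. With a replicate block of line and harvest number, 7 members were called, DUSP6 (0.11), DUSP7 (-0.25) and DUSP16 (-0.11) being added, where 3400 genes rose and 4234 fell, in place of 2650 and 3772. The numbers were not shown to pair the libraries: the correlations of deviations were 0.167 in NTC1, -0.148 in NTC2, 0.038 in sg4, 0.682 in sg5 and 0.573 in sg6. Member calls by line were 14 with all 24 libraries, in place of 25. With lines or harvests left out in turn, 0 to 5 members were called between classes in DMSO and 0 to 2 in the difference of responses, the upper ends without NTC2, and 1 in that difference without harvest 3. CDKN1A in DMSO, 0.01 and not called, ranged from -0.18 (called, without NTC2) to 0.23 (without NTC1). With NTC2 left out 3117 genes were higher and 3240 lower in DMSO, in place of 0 and 1, and 1526 and 1453 in the difference of responses, in place of 0 and 0; there 1475 and 650 were called without harvest 3. With all 24 libraries 685 genes rose and 659 fell in NTC lines, in place of 1484 and 2638. PURPL in DMSO lost its call in 4 of 14 alternatives, with an adjusted p of up to 0.17. The cause of these changes was not tested. Leaving out sg2 with Nutlin-3a of harvest 3 was not run, since it empties its group; without line sg2, 4 members rose in PURPL guide lines and 4 rose and 1 fell in NTC lines. Depth limits statements on DUSP2 and DUSP8.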
